A study of Mus musculus with 4 samples.

Results

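The cells described here are proliferating acinar cells of the injured mouse pancreas, the cells to which the authors gave the type Acinar.Prolif. They were taken by that deposited label alone. They number 894 of the 13362 EYFP-positive cells with a type, with 456 and 104 from the 2 mice injured for 2 weeks and 187 and 147 from the 2 mice injured for 4 weeks. All of them belong to 1 author cluster, number 5. The 3698 cells labelled Acinar, from author clusters 0, 6 and 8, are the comparison within each mouse.

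All 4 mice had the genotype Ptf1aCre-ERTM;ROSAYFP/+, were backcrossed into CD-1, and were 10 weeks old when injury began. Each first received tamoxifen by gavage, which switches on EYFP in cells that express Ptf1a, so that acinar cells and their descendants stay marked. Caerulein, an analogue of the hormone cholecystokinin that overstimulates acinar cells and causes pancreatitis, was then injected for 2 weeks or 4 weeks. Live EYFP-positive cells were sorted and sequenced by a droplet 3' method that counts unique molecular identifiers (UMIs), 1 library per mouse. Every group thus carries the transgenes, tamoxifen and caerulein, and no uninjured pancreas was analysed here. The deposited table used here is limited to EYFP-positive cells, each with at least 1 EYFP UMI. Each time point rests on 2 mice.

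Acinar cells make and store digestive enzymes and seldom divide in the adult pancreas. After injury, some re-enter the cell cycle while the tissue is repaired. Genes for DNA replication are switched on by E2F factors as cells enter S phase, and genes for mitosis are switched on later through CCAAT-binding NF-Y and through the MuvB complex with B-MYB and FOXM1, which binds the cell cycle homology region (CHR). In resting cells the same MuvB core, within the DREAM complex, keeps both groups off.

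The upstream sequences of 6 genes high in these cells show the letters that such factors are known to bind. They are the 4 genes of the G2/M list and the 2 of the S list with the highest levels that held the motifs and had no annotated exon in the window. Each run is the 250 bases before the RefSeq start of the gene (GRCm38.p6), 5′ to 3′ on the strand of the gene. Capitals mark CCAAT, the CHR letters TTTGAA or TTCGAA, and the E2F letters TTCCCGC or TTGGCGC, each on either strand.

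Mki67, which codes for the proliferation antigen Ki-67, at chr7:135716380-135716629, minus strand: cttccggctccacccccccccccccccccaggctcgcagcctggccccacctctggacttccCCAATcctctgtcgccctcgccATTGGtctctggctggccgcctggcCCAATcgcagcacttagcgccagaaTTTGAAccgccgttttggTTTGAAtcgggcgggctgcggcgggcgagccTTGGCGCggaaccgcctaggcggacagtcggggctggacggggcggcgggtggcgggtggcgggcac
Top2a, DNA topoisomerase II alpha, at chr11:99024190-99024439, minus strand: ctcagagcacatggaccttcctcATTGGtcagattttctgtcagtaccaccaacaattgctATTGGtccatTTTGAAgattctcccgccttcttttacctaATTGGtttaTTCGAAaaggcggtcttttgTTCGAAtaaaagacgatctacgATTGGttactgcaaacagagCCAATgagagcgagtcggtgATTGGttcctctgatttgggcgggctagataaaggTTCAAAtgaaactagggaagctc
Smc2, a condensin subunit, at chr4:52438971-52439220, plus strand: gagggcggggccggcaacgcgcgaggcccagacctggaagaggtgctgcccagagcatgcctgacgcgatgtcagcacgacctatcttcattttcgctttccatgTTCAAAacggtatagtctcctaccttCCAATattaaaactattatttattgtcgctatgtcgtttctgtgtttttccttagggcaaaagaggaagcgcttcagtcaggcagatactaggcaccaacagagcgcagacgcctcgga
Ccnb2, cyclin B2, at chr9:70421555-70421804, minus strand: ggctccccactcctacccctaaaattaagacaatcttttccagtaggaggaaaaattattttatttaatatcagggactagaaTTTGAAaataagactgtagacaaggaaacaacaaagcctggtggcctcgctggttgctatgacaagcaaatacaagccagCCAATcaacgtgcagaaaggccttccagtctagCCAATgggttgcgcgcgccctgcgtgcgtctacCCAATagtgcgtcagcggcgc
Rrm1, the large subunit of ribonucleotide reductase, at chr7:102441445-102441694, plus strand: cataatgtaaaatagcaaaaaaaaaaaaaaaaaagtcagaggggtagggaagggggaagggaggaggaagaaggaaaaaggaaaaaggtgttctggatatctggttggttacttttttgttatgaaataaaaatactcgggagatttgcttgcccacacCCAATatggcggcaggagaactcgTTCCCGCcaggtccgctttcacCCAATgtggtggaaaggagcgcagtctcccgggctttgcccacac
Mcm6, a subunit of the replicative helicase, at chr1:128359706-128359955, minus strand: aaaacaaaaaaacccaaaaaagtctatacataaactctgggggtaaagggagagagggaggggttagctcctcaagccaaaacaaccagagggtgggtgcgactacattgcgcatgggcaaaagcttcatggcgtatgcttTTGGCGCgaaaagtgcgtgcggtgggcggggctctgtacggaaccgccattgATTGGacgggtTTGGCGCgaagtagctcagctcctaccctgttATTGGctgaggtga

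The Top2a window held 6 CCAAT and 4 CHR matches, and that of Mki67 held 3 CCAAT, 2 CHR and 1 E2F match. Those of Rrm1 and Mcm6 held 1 and 2 E2F matches and 0 CHR matches. Over the 54 genes of the G2/M list with a window, 39 (72.2%) held CCAAT and 19 (35.2%) a CHR match, against 34.5% and 17.4% of all 27025 windows. Both motifs stood in 17 of the 54 (31.5%), against 6.21% of all windows. CCAAT was also frequent in the other cycle lists, in 24 of 36 S list windows (66.7%) and 14 of 18 chromatin windows (77.8%). Of the 36 S list windows, 6 (16.7%) held a CHR match and 15 (41.7%) an E2F match, against 5 of 54 in the G2/M list and 5.71% of all. Of 29 windows of acinar enzyme genes, 6 held CCAAT, 5 a CHR match and 1 an E2F match. A CCAAT match overlapped an E2F match in 1 of the G2/M and 2 of the S windows. A match describes letters only, and binding was not measured.

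The 4 libraries gave Acinar.Prolif cells of similar depth to their Acinar neighbours. Their summed counts ran from 2985099 to 13441199 UMIs per mouse, with medians of 23407 to 30804 UMIs per cell. These medians were 0.846 to 0.975 of those in the Acinar cells of the same mouse, while the median number of genes per cell was 1.17 to 1.28 times as high. The Acinar clusters differed in depth, with medians of 24782 to 30753 UMIs in cluster 0, 36818 to 48746 in cluster 6 and 12983 to 20645 in cluster 8. Levels below are UMI counts scaled to a common library size (CPM), from the cells of a type summed within a mouse. Of the cells, 51.0% came from 2-week mouse 1. Of all barcodes, 23 occurred in more than 1 library, 0 of them in an Acinar.Prolif cell.

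The labelled cells held transcripts of both an acinar enzyme and cell-cycle genes. The level of Cpa1, which codes for the acinar enzyme carboxypeptidase A1, was 14194 and 15676 CPM at 2 weeks and 17488 and 14109 CPM at 4 weeks. Tuft cells of the same mice had 270 to 571 CPM. Acinar cells had more in each mouse, 18165 and 20837 CPM at 2 weeks and 21511 and 20659 CPM at 4 weeks. Acinar/MucinDuctal cells had 7873 to 9497 CPM, so Cpa1 does not set these cells apart from Acinar cells. For Mki67 the levels were 186 and 232 CPM in the 2-week mice, then 225 and 169 CPM in the 4-week mice. In Acinar cells its levels were 20.6, 6.86, 8.19 and 4.65 CPM in the same order of mice, and 2-week mouse 1 had the highest Acinar level. The types were formed from these same counts, so this gap describes the label and is no test. With every cell thinned to 5000 UMIs, which left out 37 of the 894 cells, an Mki67 UMI was found in 53.4%, 60.6%, 58.9% and 55.5% of Acinar.Prolif cells. The share was 3.44% to 9.01% in Acinar cells and 0% to 1.60% in tuft cells, a type that serves as the background from free RNA. Without thinning, the Mki67 share was 85.6% to 89.1% in Acinar.Prolif cells. Cells of the type Acinar/MucinDuctal had an Mki67 UMI in 7.63% to 14.2% after thinning.

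For each gene, the log2 ratio of Acinar.Prolif to Acinar CPM was taken within each mouse after adding 1 CPM, and a gene was counted as higher or lower when the levels differed at least 2-fold the same way in 4 of 4 mice. The authors' types were formed from these same counts, so the values describe the cells and carry no test. Of 5220 genes with a mean of at least 10 CPM in either type, 367 (7.03%) were higher and 9 (0.172%) lower. A gene can pass this filter through the type in which it is high. Foxm1 did so, with means of 17.1 CPM in Acinar.Prolif and 0.747 CPM in Acinar cells. Counts of higher or lower genes in a list are therefore in part set by the filter. The median gene lay at 0.50 on the log2 scale, and at 0.14 when enzyme genes were left out of the library size. TMM scaling put it at -0.01, and 205 genes were then higher and 27 lower. List medians are therefore read against 0.50.

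The G2 and M phase list was the highest of all lists, with 61 of 61 measured genes higher and a median log2 ratio of 3.75. This count is no test, since the label rests on these counts and the filter admits genes through their Acinar.Prolif level. Ube2c, the ubiquitin-conjugating enzyme of the anaphase-promoting complex, had 447, 537, 456 and 398 CPM in Acinar.Prolif cells and 41.2, 5.42, 5.28 and 8.94 CPM in Acinar cells. Its mean log2 ratio, 5.33 ± 1.36 (SD, n = 4 mice), was the top value of the list. Top2a, which untangles sister DNA before division and has the 6 CCAAT matches above, had 157, 219, 187 and 182 CPM against 15.3, 4.55, 2.53 and 2.94 CPM. Cdk1, the kinase that drives entry into mitosis, had 80.9, 105, 80.6 and 103 CPM against 12.9, 1.96, 1.84 and 2.97 CPM. Its partners cyclin B1 and cyclin A2 followed, with mean log2 ratios of 4.34 ± 0.88 for Ccnb1 and 4.53 ± 0.77 for Ccna2 (SD, n = 4). The survivin gene Birc5, part of the complex that corrects chromosome attachment, had a ratio of 4.57 ± 1.15 (SD, n = 4). In each of these 6 genes, 2-week mouse 1 had the smallest ratio and the highest Acinar level.

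In the S phase list, 30 of 33 measured genes were higher, with a median of 2.24, and the other 3 were Ung, Pold3 and Casp8ap2. Rrm2, the small subunit of ribonucleotide reductase, had 38.1, 55.3, 34.8 and 39.8 CPM against 5.51, 2.71, 1.84 and 1.91 CPM. Pcna, the sliding clamp of DNA polymerase, had 54.8, 78.1, 67.1 and 83.7 CPM against 18.7, 18.8, 12.1 and 14.1 CPM. Both genes were higher in every Acinar.Prolif sum than in any Acinar sum, which describes types formed from these same counts and is no test. Mcm5, of the replicative helicase, had a mean log2 ratio of 2.24 ± 0.42 (SD, n = 4), whereas Ung, a uracil-DNA glycosylase, had 0.39 ± 0.11 (SD, n = 4), below the median gene. A further 15 of the 48 S list genes did not reach 10 CPM in either type, among them the G1/S cyclin gene Ccne1, at 5.43 to 10.0 CPM against 0.345 to 1.18 CPM.

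Among regulators, 3 of 8 measured genes of the E2F, DREAM and MuvB list were higher. They were E2f1, the activating E2F (14.8, 20.4, 21.2 and 18.2 CPM against 4.67, 2.54, 2.68 and 1.71 CPM), Foxm1 (mean log2 ratio 3.38 ± 0.63) and the MuvB subunit gene Lin54 (1.86 ± 0.24; SD, n = 4). Of these 3, Foxm1 was also higher against each of the 3 author clusters of Acinar cells taken alone, whereas E2f1 and Lin54 missed the rule against cluster 8 (1.74 ± 0.55 and 1.49 ± 0.46; SD, n = 4). The other 12 genes of that list were under the 10 CPM filter, such as Mybl2, the gene for B-MYB, at 5.43 to 11.4 CPM against 0.701 to 1.36 CPM, a ratio above 0 in 4 of 4 mice. D-type cyclins, which carry growth signals to the cycle, stayed under the 2-fold rule, with mean log2 ratios of 0.41 for Ccnd2, 0.55 for Ccnd3 and 0.89 for Ccnd1. Of the inhibitors, Cdkn2c, Cdkn2d and Cdkn3 were higher, at 2.82, 3.02 and 3.04, while Cdkn1a, the p53 target that codes for p21, lay at 0.06 ± 0.57 (SD, n = 4), with a ratio above 0 in 3 of 4 mice. Of the 20 measured nucleotide synthesis genes, 4 were higher, among them Tk1 (3.57), Shmt1 (1.52) and Dtymk (1.46), and the list median was 0.73.

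Chromatin and histone genes were higher in 27 of 29 cases, with a median of 2.52. Hmgb2, a chromatin protein abundant in dividing cells, had 370, 498, 349 and 374 CPM against 45.2, 22.6, 9.46 and 14.2 CPM. H2afz, the gene for histone variant H2A.Z, had 1127, 1319, 1179 and 1289 CPM against 349, 225, 238 and 253 CPM. Outside the S, G2/M and chromatin lists, 249 more genes were higher. The 15 of them with the largest ratio in their weakest mouse were Sapcd2, Ska1, Spdl1, Arhgap11a, Aspm, Depdc1a, Pclaf, Knl1, Cenpp, Diaph3, Gpsm2, Esco2, Cip2a, Tk1 and Foxm1. Sapcd2 and Gpsm2 act in spindle orientation, Ska1, Spdl1, Knl1 and Cenpp at the kinetochore, and Esco2 in sister chromatid cohesion. Sapcd2 led them, with 43.3, 41.9, 34.8 and 34.2 CPM against 4.61, 1.90, 1.19 and 1.09 CPM.

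**Figure D1:**
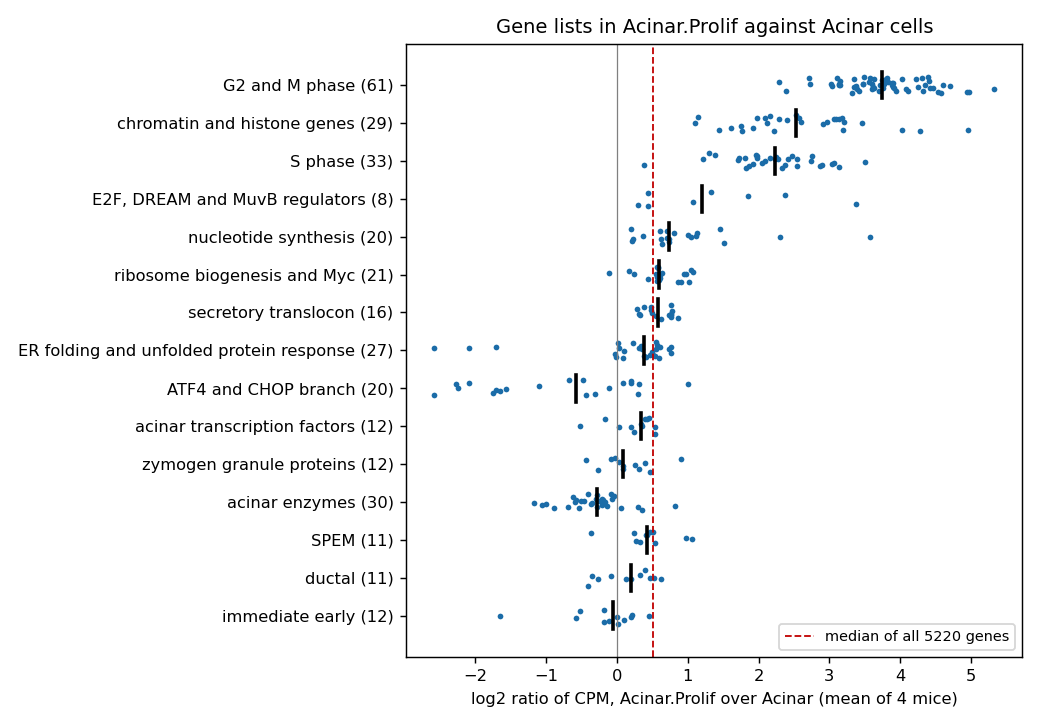
Each point is a gene of the list named on the vertical axis that passed the 10 CPM filter (number in brackets), placed at its mean log2 ratio of CPM in Acinar.Prolif over Acinar cells across 4 mice. Black bars are list medians and the dashed line is the median of all 5220 genes, 0.50. The G2/M, chromatin and S lists lie to the right of it, and most enzyme genes lie to the left.

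Enzyme genes remained the most abundant list, at a lower share. Enzyme genes took 43.7%, 34.9%, 45.8% and 43.6% of the UMIs of Acinar.Prolif cells and 52.0%, 49.1%, 57.9% and 58.7% of those of Acinar cells, a lower share in 4 of 4 mice. The log2 ratio of the list's summed CPM was -0.38 ± 0.11 (SD, n = 4). Of 30 measured enzyme genes, 0 passed the 2-fold rule, 20 had ratios below 0 in 4 of 4 mice, and 2, Pla2g1b and Rnase1, had ratios above 0 in 4 of 4. The list median was -0.29, and 29 of the 30 lay below the median gene. With TMM scaling the list median was -0.80, and 4 of its genes were lower by the 2-fold rule. Ctrb1, the gene for chymotrypsinogen B1, had 142076, 156540, 170080 and 173351 CPM against 185743, 238649, 246841 and 246866 CPM. The colipase gene Clps, in contrast, had a ratio of 0.06 ± 0.14 (SD, n = 4). The trypsinogen genes Try5 (-0.99), Prss3 (-1.06) and Gm10334 (-1.17) lay lowest. They are near-identical family members whose reads may be shared, so their single values are uncertain. Against Acinar cluster 8 alone, the mean ratios of these 3 genes were above 0, at 1.55, 1.14 and 0.41, and Try5 was higher by the 2-fold rule.

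Acinar transcription factor genes did not pass the rule in any of 12 cases, with a median of 0.35. Ptf1a, the factor that maintains acinar fate and drives the Cre here, had 41.4, 40.2, 29.9 and 46.5 CPM against 64.5, 62.2, 38.5 and 65.1 CPM, below the Acinar level in each mouse. The ratio differed with the Acinar cluster compared, as did the median of all genes, which was 0.88 against cluster 0, 0.26 against cluster 6 and -0.18 against cluster 8. Cluster 0 had 29.9, 37.6, 26.0 and 30.4 CPM, below Acinar.Prolif in 4 of 4 mice (mean log2 ratio 0.33 ± 0.23), while cluster 6 had 115, 90.1, 99.1 and 109 CPM, against which Ptf1a was lower by the 2-fold rule (-1.38 ± 0.25; SD, n = 4). Its partner gene Rbpjl had a ratio of 0.40 ± 0.15 and Bhlha15, which codes for MIST1 and supports granule packing, had 0.24 ± 0.21 (SD, n = 4). Both lay above 0 yet below the median gene of the comparison with all Acinar cells. Against cluster 6 alone they lay above its median gene of 0.26, at 0.945 and 0.856. Against cluster 8 both were below 0 in 4 of 4 mice, at -0.57 and -0.65. Ptf1a had -0.59 there, and so lay below the median gene against each of the 3 clusters. The median of the 12 acinar factor genes, relative to the median gene, was -0.21 against cluster 0, -0.08 against cluster 6 and -0.39 against cluster 8. EYFP did not pass the 2-fold rule, with 345, 323, 322 and 310 CPM against 225, 171, 177 and 180 CPM, a mean log2 ratio of 0.79 ± 0.13 (SD, n = 4), or 0.29 above the median gene, and every typed cell held at least 1 EYFP UMI.

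The 3 Acinar clusters differed among themselves, and Acinar.Prolif cells were therefore set against each, a comparison added after the data were seen. Cluster 0 gave 58.1% to 64.2% of its UMIs to enzyme genes, cluster 6 gave 48.3% to 53.9% and cluster 8 gave 31.8% to 39.4%. The share in Acinar.Prolif cells was below that of clusters 0 and 6 in each mouse; it was above that of cluster 8 in 3 of 4 mice, the exception being 2-week mouse 2. Against cluster 0, 1072 genes (20.8% of 5163) were higher and 1 (0.0194%), Gm10334, was lower. Against cluster 6, 316 (5.72% of 5521) were higher and 82 (1.49%) lower. Against cluster 8, 187 (3.23% of 5798) were higher and 9 (0.155%) lower. The median of the 30 enzyme genes was -0.53 against cluster 0, -0.18 against cluster 6 and 0.40 against cluster 8. Relative to the median gene of each comparison it was -1.41, -0.44 and 0.57, so its direction turned with the cluster.

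Many genes above all 3 clusters lay in the S, G2/M or chromatin lists. Higher against each were 164 of 5156 genes (3.18%), and 88 of these lay in the S, G2/M or chromatin lists, including 59 G2/M, 15 chromatin and 14 S genes. The other 76 included Ube2s, of the anaphase-promoting complex, Cks1b, a subunit that binds cyclin-dependent kinases, Pttg1, the securin gene, and Gmnn, the gene for the replication inhibitor geminin. These 4 were chosen after their values were seen. No gene of the enzyme, granule, acinar factor, ER, translocon or ribosome biogenesis lists was among the 164. Of the genes named above, Pcna, Mcm5, Mcm6, H2afz, Cdkn2d, Shmt1 and Dtymk were not among them either, so their calls did not hold against every cluster. Lower against each of the 3 clusters were 0 genes.

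**Figure D2:**
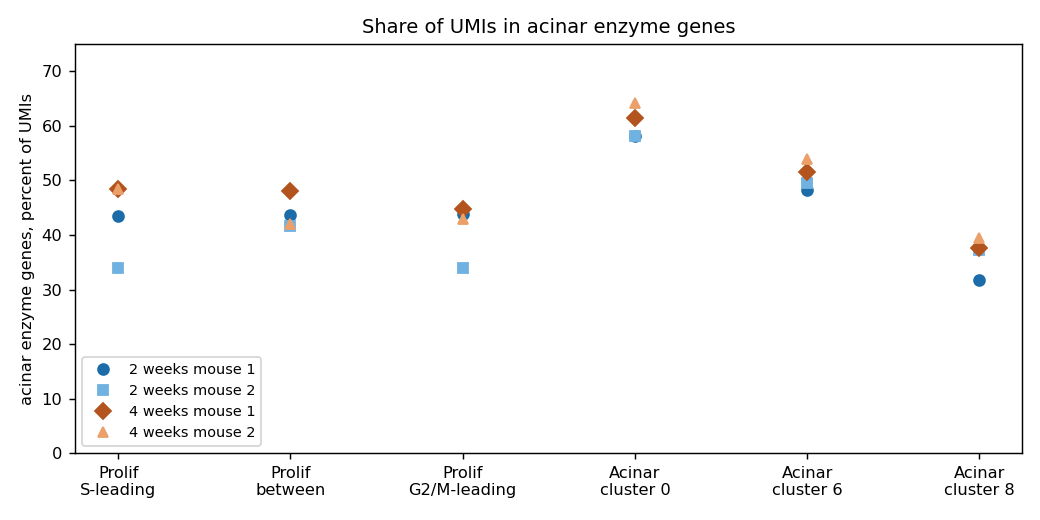
The vertical axis is the percent of UMIs in the acinar enzyme genes, for Acinar.Prolif cells by cell-cycle range and for the 3 Acinar clusters, with 1 point per mouse. Acinar.Prolif ranges lie between 33.9% and 48.5%, under the 58.1% to 64.2% of cluster 0.

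The 9 genes lower in Acinar.Prolif than in Acinar cells were Nupr1, Trib3, Atf3, Gdf15, Atf5, Fetub, Ddit3, Chac1 and Trp53inp1. Most are known from the integrated stress response, in which the factor ATF4 and its target CHOP, the product of Ddit3, are made when protein folding or amino acid supply fails. Nupr1, a chromatin protein strongly induced in pancreatitis, had 662, 615, 614 and 912 CPM against 4107, 2345, 2144 and 5974 CPM, with a mean log2 ratio of -2.27 ± 0.47 (SD, n = 4). Ddit3 had 5.58, 13.1, 3.32 and 6.30 CPM against 40.2, 29.2, 16.2 and 43.1 CPM. Trib3, a pseudokinase gene under CHOP, had 27, 0, 9 and 9 UMIs in Acinar.Prolif cells. The 0 allows up to 1.00 CPM, or 3 counts, in that mouse, where Acinar cells had 8.53 CPM. Atf5, another factor of the pathway, had 23.2, 20.8, 21.9 and 27.9 CPM against 83.1, 61.2, 52.4 and 93.9 CPM. The rule that picked the 9 genes itself requires the lower level in each mouse. Most of the 9 passed the 10 CPM filter through the Acinar level alone. They were Trib3, Gdf15, Fetub, Chac1, Trp53inp1 and Ddit3, with means of 1.28 (Trib3) to 7.07 CPM (Ddit3) in Acinar.Prolif cells. With a pseudocount of 5 CPM, 2 of the 9 stayed past the 2-fold rule, and with every cell thinned to 5000 UMIs, 4 of the 9.

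These values depended on which Acinar cells were compared. In cluster 6, Nupr1 had 9929, 9358, 11226 and 13153 CPM, while in cluster 0 it had 560, 588, 371 and 802 CPM, below Acinar.Prolif in each mouse. Ddit3 had 97.1, 91.3, 81.5 and 92.6 CPM in cluster 6 and 5.43, 12.3, 3.33 and 7.36 CPM in cluster 0. Its Acinar.Prolif levels lay next to those of cluster 0. Against cluster 0, 3 of the 9 genes had a mean log2 ratio above 0. The means ran from -1.12 (Fetub) to 0.50 (Atf3), all below the median gene of that comparison, 0.88. All 9 genes were lower against cluster 6, 1 of the 9 (Trp53inp1) was lower against cluster 8, and 0 of the 9 against cluster 0. A list of 26 genes of the ATF4 and CHOP branch was put together after these values were seen and holds 7 of the 9 genes, so its counts are no separate evidence. Of its 20 measured members, those 7 were lower, against 0.172% of all genes, and the median was -0.57. Against cluster 6, 15 of 24 were lower, against 1.49% of all genes. Against cluster 0, 1 of 14 was higher, against 20.8% of all genes, and 0 were lower, with a median of -0.35 relative to the median gene. Atf4 itself, largely controlled at translation, had 108, 120, 76.9 and 87.5 CPM in Acinar.Prolif cells against 119, 103, 61.4 and 91.8 CPM in Acinar cells.

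**Figure D3:**
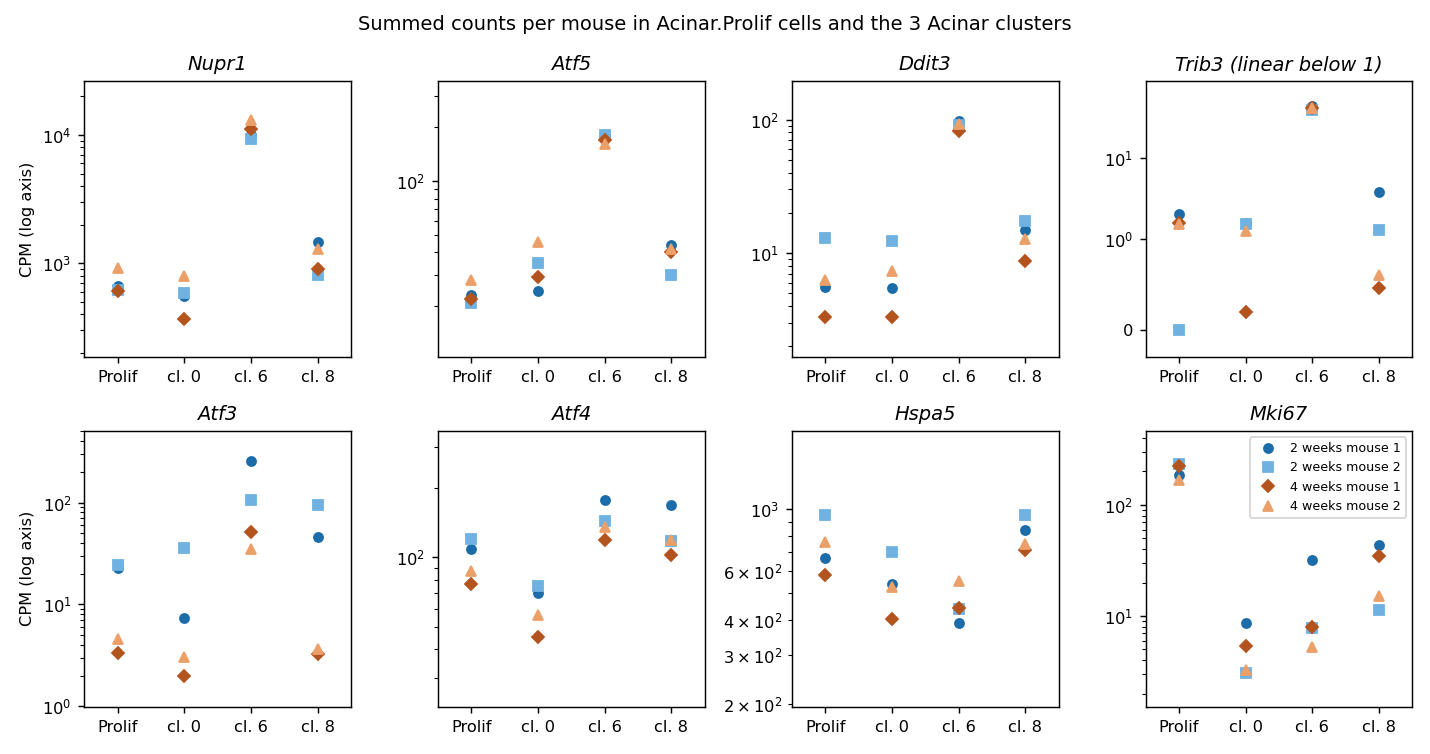
Each panel gives the CPM of 1 gene on a logarithmic axis, with 1 point per mouse, in Acinar.Prolif cells (Prolif) and in Acinar clusters 0, 6 and 8 (cl.). Nupr1, Atf5, Ddit3 and Trib3 peak in cluster 6, and Mki67 is highest in Acinar.Prolif cells.

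Other genes of protein folding did not share this pattern. Of the 27 measured genes of the ER folding and unfolded protein response list, 3 were lower (Ddit3, Trib3 and Chac1) and 0 higher. Of all genes, 0.172% were lower and 7.03% higher. The chaperone gene Hspa5 had 669, 950, 582 and 762 CPM against 512, 737, 436 and 545 CPM, a mean log2 ratio of 0.41 ± 0.05 (SD, n = 4), which is just under the median gene. All 16 secretory translocon genes, which bring new proteins into the ER, were above 0 in 4 of 4 mice. Their median was 0.59, only 0.08 above the median gene, and 80.1% of all measured genes were above 0 in 4 of 4 mice. Against cluster 6 alone it was 1.04, or 0.78 above the median gene, with 3 of 16 higher, against 5.72% of all genes. Relative to the median gene it was -0.21 against cluster 0 and 0.14 against cluster 8. The ER folding list lay 0.28 above the median gene against cluster 6, with 4 of 28 higher and 3 lower (1.49% of all genes). The ribosome biogenesis list had a median of 0.60 and 0 of 21 genes past the rule, with the nucleolar genes Ncl at 1.02 ± 0.10 and Nolc1 at 1.08 ± 0.22 (SD, n = 4). Myc, the growth factor-responsive gene that drives ribosome production, lay at -0.12 ± 0.27 (SD, n = 4). Of the p53 targets, 2 of 10 were lower, against 0.172% of all genes. They were Trp53inp1 and Gdf15, both among the 9 above.

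Against all Acinar cells, the medians of the metaplasia lists were near or below the median gene. Among 11 genes each of the ductal list and of the list for spasmolytic polypeptide-expressing metaplasia (SPEM), a gastric-type state that acinar cells take up after injury, 0 passed the rule, and the medians were 0.20 and 0.42. Tff2, the peptide that gives SPEM its name, had 2356, 2433, 2444 and 2251 CPM against 1943, 2311, 2113 and 1554 CPM. Cd44, a surface receptor, had a ratio of 0.97 ± 0.33, and Pdx1, the pancreas progenitor factor gene, had 1.14 ± 0.37 (SD, n = 4). In the SPEM list, which holds Cd44, 7 of 11 genes lay below the median gene. Pdx1 was the highest of 13 measured ductal and metaplasia transcription factor genes. The median of those 13 was 0.41, 9 of them lay below the median gene, and 0 passed the rule. Pdx1 was above 0 in 4 of 4 mice but short of 2-fold in 1 of them. TMM scaling puts Cd44 and Pdx1 at 0.51 and 0.69. Against cluster 6 alone, the ductal list had a median of -0.50 (-0.76 relative to the median gene), and 4 of 14 genes were lower, against 1.49% of all genes. They were the keratin genes Krt18 and Krt19, Cldn4 of tight junctions and Anxa3. The SPEM list had a median of 0.89 there (0.63 relative to the median gene), with 2 of 11 genes higher, against 5.72% of all genes. They were the mucin gene Muc6 (1.34 ± 0.07) and Agr2, a protein-folding gene of secretory cells (1.88 ± 0.34, SD, n = 4). The single measured gastric pit-type gene, Anxa10, was lower against cluster 6. Against cluster 8, 0 genes of the ductal and SPEM lists passed the rule, and against cluster 0 Epcam and Cd44 were higher (1 of 11 genes in each list, where 20.8% of all genes were higher).

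Summed transcripts of immune cells were low, with 1 of 18 markers past the 10 CPM filter, and above the Acinar level in each mouse. The log2 ratios of the sums were 0.97, 0.59, 0.69 and 2.17 in the same order of mice. Those of 2-week mouse 2 and 4-week mouse 1 lay near the median gene, 0.50. The summed level of the 18 immune markers was 51.6, 56.6, 28.3 and 71.0 CPM, against at most 37.2 CPM in Acinar cells (higher in 4 of 4 mice, with a mean log2 ratio of the sums of 1.11 ± 0.73, SD, n = 4), with S100a8 at 0. The MHC class II genes H2-Aa (1.71 ± 0.86), H2-Ab1 (1.29 ± 0.66), H2-Eb1 (1.42 ± 0.80) and Cd74 (1.26 ± 0.61, SD, n = 4) were above 0 in 4 of 4 mice with them. In the interferon and MHC list, which holds H2-Aa, 4 of 13 measured genes were above 0 in 4 of 4 mice, against 80.1% of all genes. The median of that list was 0.17, or -0.34 relative to the median gene. When cells holding at least 3 UMIs of the immune or stromal markers were left out (72, 39, 21 and 20 Acinar.Prolif cells), the 4 ratios were 0.50, 0.45, 0.41 and 0.40, near the median gene. The summed stromal, endothelial and mesothelial markers stood at 13.4, 71.7, 9.44 and 5.96 CPM, with Cdh5 and Lrrn4 at 0, and 2-week mouse 2 held the most. The counts of higher and lower genes without those cells were 363 and 10.

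Within Acinar.Prolif cells, UMIs of the G2/M list outnumbered those of the S list. The lists are unlike, with 61 of 64 G2/M genes but 33 of 48 S genes past the 10 CPM filter. A share of their UMIs is therefore no estimate of the cells in each phase. For each cell thinned to 5000 UMIs, the S share was the UMIs of the S list divided by those of both lists, for the 841 of 857 cells with at least 5 such UMIs. Its median was 0.182 and 0.192 in the 2-week mice, and in the 4-week mice it was 0.167 and 0.200. Cells with an S share of at least 0.6 made up 8.05%, 14.1%, 9.30% and 10.4%, and cells at or under 0.4 made up 82.3%, 74.7%, 77.9% and 72.6%. Within 0.05 of either limit lay 57, 11, 22 and 27 cells, so these ranges are cuts through a continuum. The 5-UMI limit alone does not mark cycling, since 347 of 1251 tuft cells also reached it. The time points overlapped, and the exact permutation test of the median S share gave p = 1 (two-sided, n = 2 against 2, smallest possible p 0.333).

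**Figure D4:**
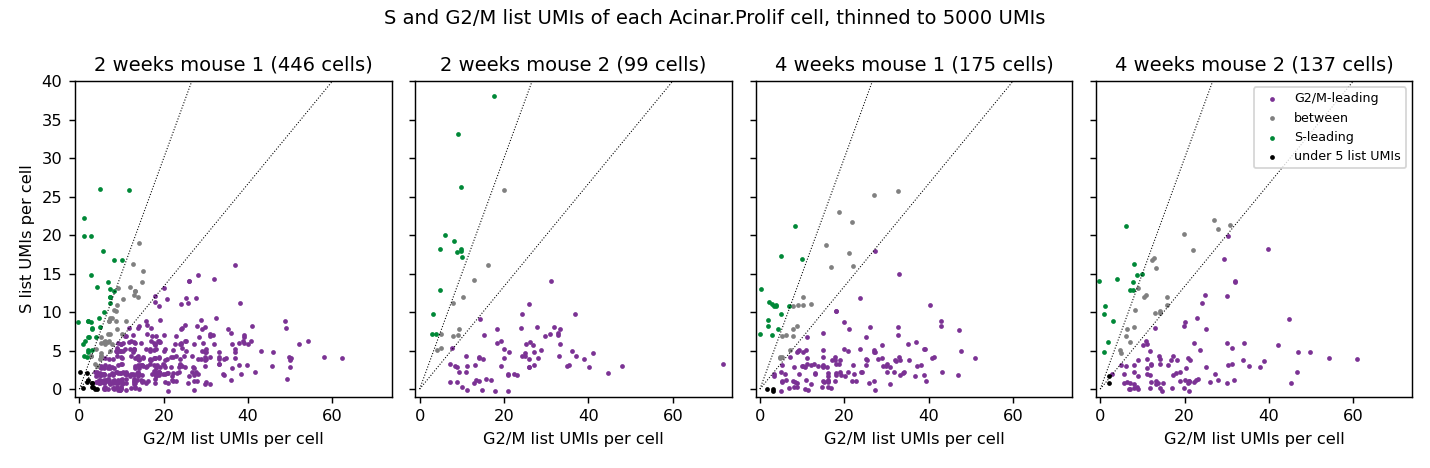
Each point is an Acinar.Prolif cell thinned to 5000 UMIs, with its G2/M list UMIs on the horizontal and its S list UMIs on the vertical axis (small random offsets separate ties), 1 panel per mouse. Dotted lines mark S shares of 0.4 and 0.6, and most cells lie along the G2/M axis in all 4 mice.

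The enzyme share of these ranges did not differ beyond the spread between mice. Cells led by S transcripts gave 43.4%, 34.0%, 48.5% and 48.4% of their UMIs to enzyme genes, and cells led by G2/M transcripts gave 43.8%, 33.9%, 44.8% and 42.9%. The log2 ratio of G2/M-led to S-led cells was -0.07 ± 0.09 (SD, n = 4 mice), with 14 to 35 S-led cells per mouse. Nupr1 was lower in S-led than in G2/M-led cells in 4 of 4 mice, at 366, 468, 431 and 646 CPM against 700, 669, 683 and 861 CPM, and both lay far under cluster 6.

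The design also asks whether these cells differ between 2 and 4 weeks of injury. Among typed cells of 2-week mouse 1, 15.3% were Acinar.Prolif (Clopper-Pearson 95% interval 14.0 to 16.6), and among those of 2-week mouse 2, 2.90% (2.373 to 3.499). For 4-week mouse 1 the figure was 6.65% (5.75 to 7.63), and for 4-week mouse 2 it was 3.70% (3.13 to 4.33). Both 4-week mice lay between the 2-week mice, and the exact permutation test gave p = 1 (two-sided, n = 2 against 2). Of acinar cells of both types, the shares were 23.8%, 15.1%, 19.7% and 14.1%, with p = 0.667 by the same exact test. The intervals cover counting error only. Among all typed cells, the 2-week mice differed from each other by more than any 2-week mouse differed from a 4-week mouse. Which cells are sorted and typed sets these shares, and fewer cells of a type cannot be told apart from more of the others.

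Few genes of Acinar.Prolif cells passed the test of time with these 4 mice. Of 10046 genes tested with edgeR's quasi-likelihood test on the summed counts, 1 (0.00995%) passed an adjusted p of 0.05, and 246 (2.45%) had an unadjusted p under 0.05. DESeq2 called 2. The gene was Atf3, a stress-induced transcription factor gene, at 22.7 and 24.1 CPM at 2 weeks and 3.32 and 4.59 CPM at 4 weeks. It fell by 2.39 on the log2 scale (SE 0.25; adjusted p = 0.0144 by edgeR with Benjamini-Hochberg adjustment, 0.0939 without robust estimation), lower in both 4-week mice than in either 2-week mouse. Without 2-week mouse 1 or 2-week mouse 2 the fit called 143 and 132 genes, and without 4-week mouse 1 or 2 it called 13 and 5. Each of these fits leaves 1 time point with a single mouse, which is assumed to vary like the other mice, so the calls carry no replicate check for that time point.

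Acinar cells of the same mice had Atf3 at 102, 70.3, 9.88 and 16.5 CPM, and its change over time did not differ detectably between the types (interaction -0.08 ± 0.25 SE on the log2 scale, edgeR adjusted p = 1). The next genes by p whose mice did not overlap between time points missed the threshold. Among them were Lgalsl, Chil4, C2cd4b, Gpc3, Rhob and Zfp36l1, with log2 differences from -1.38 (Gpc3) to -0.68 (Zfp36l1), and Cpe and Ramp1, with 1.02 and 0.80 (edgeR adjusted p 0.358 to 0.988). Of all genes tested, 3181 (31.7%) had such non-overlapping mice.

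The immediate early genes, which respond within minutes to growth signals or stress, had the lowest median over time of the lists with at least 10 tested genes. Of 19 tested, 1 passed (Atf3) and 14 had non-overlapping mice, against 31.7% of all genes tested. The median difference was -1.04. Jun had 112 and 240 CPM at 2 weeks and 59.6 and 79.1 CPM at 4 weeks, a log2 difference of -1.09 (edgeR adjusted p = 1). Fos had 40.2 and 193 CPM and then 29.0 and 34.0 CPM, with 2-week mouse 2 far above the others. In that mouse 37.5% of Acinar.Prolif cells held at least 3 immune or stromal UMIs, against 11.2% to 15.8% in the other mice. Whether this bears on Fos was not tested. Cells were dissociated at 37°C before sorting, and its part in these levels was not tested.

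No change over time was detected in cell-cycle genes of Acinar.Prolif cells. The types were formed from these same counts, so the label itself can hold these levels alike at both time points. None of 48 S list and 63 G2/M list genes passed, with medians of 0.11 and 0.13, and Mki67 had a log2 difference of 0.12 (SE 0.20, adjusted p = 1 by edgeR). The summed S list in Acinar cells was 283 and 270 CPM in the 2-week mice, then 161 and 173 CPM in the 4-week mice, whereas in Acinar.Prolif cells it was 951, 1380, 1007 and 1177 CPM. The summed G2/M list in Acinar cells was 369 CPM in 2-week mouse 1 and 124, 100 and 113 CPM in the other mice. The interaction of type and time, fitted with the mouse as a block, had an unadjusted p under 0.05 in 23 of 48 S list genes, 14 of 63 G2/M genes and 13 of 33 enzyme genes, with medians of 0.59, 1.10 and -0.30. Over all 12262 genes that share was 5.66%. The medians moved when a mouse was left out. Without 2-week mouse 1, they were 0.21, -0.35 and -0.16, so that of the G2/M list turned negative, and 2, 15 and 3 genes had an unadjusted p under 0.05. Without 2-week mouse 2, the medians were 0.86, 1.67 and -0.42, and 11 S, 49 G2/M and 2 enzyme genes passed the adjusted threshold, in a fit whose only 2-week mouse is assumed to vary like the 4-week mice. With all 4 mice, none of these list genes passed the adjusted threshold, and 2 genes of all (0.0163%) did. Mcm5 had an interaction of 0.58 on the log2 scale, with an edgeR adjusted p of 0.860.

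**Figure D5:**
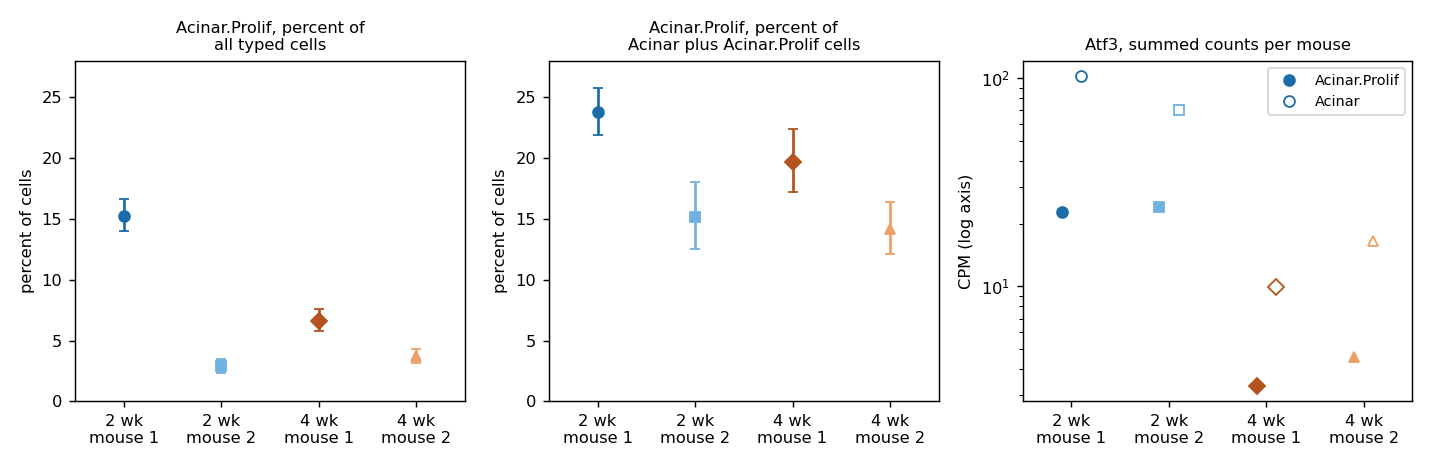
The left and middle panels give Acinar.Prolif cells as a percent of all typed cells and of both acinar types in each mouse, with 95% Clopper-Pearson intervals. The right panel gives Atf3 CPM on a logarithmic axis in Acinar.Prolif (filled) and Acinar (open) cells, and both 4-week mice lie below both 2-week mice in each type.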

How the data were processed

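Sorted EYFP-positive pancreas cells of 4 mice were profiled with 10x 3' v3.1 libraries. Reads were processed with Cell Ranger 4.0.0 and Seurat 3.2.3 on mm10, per the submitters' processing notes. The deposited counts are raw UMIs per gene and cell for 32288 features, and cell types were taken from the authors' deposited table. The members and gene lists were chosen with earlier results of these data known.

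UMIs were summed per mouse and type. Time and type-by-time effects were tested with edgeR 4.0.16 (quasi-likelihood, robust, TMM, filterByExpr) and Benjamini-Hochberg adjustment at 0.05, with DESeq2 1.42.0 as an alternative. On simulated 4-fold changes in 200 genes, the time test recovered 184 with 6 false calls (10046 genes), and the interaction test 154 with 7 (12262 genes). The simulation gave all genes 1 common dispersion (0.035 for time, 0.00815 for the interaction) and no differences between mice or types beyond depth and the set changes. It checks that the code runs as meant and gives no recovery rate for the real counts. Of single genes, list members and, outside the cycle lists, the 15 per direction with the largest ratio in their weakest mouse are named, and over time the calls or else the 10 genes of smallest p with at least 10 CPM and non-overlapping mice. Cells were thinned at random to 5000 UMIs for shares. Single genes that these rules would name are in part not reported here. No doublet caller was run. Mice are separate animals. Motifs were counted in 1 RefSeq window per gene.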

Additional observations from a re-analysis of the deposited data

Results flagged for a closer look

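Of 12262 genes tested for a difference of the time effect between Acinar.Prolif and Acinar cells, 2 passed by edgeR, and DESeq2 called 0 (109 genes at an unadjusted p under 0.05, against 694 by edgeR). Cxcl9, an interferon-induced chemokine gene, had a fitted interaction of 11.13 on the log2 scale (adjusted p = 0.000561), which is no bound because several sums were 0. Its Acinar.Prolif counts were 5, 0, 99 and 0 UMIs in the order 2-week mouse 1, 2-week mouse 2, 4-week mouse 1 and 4-week mouse 2, and the 99 UMIs came from 2 cells. Its Acinar counts were 37, 1, 0 and 0 UMIs. Its adjusted p ranged from 6.6e-16 to 1 over 10 alternatives. Jchain, the immunoglobulin joining chain gene of plasma cells, had an interaction of -3.40 (edgeR adjusted p = 0.00286; 4.57e-10 to 1.00 over 11 alternatives). It had 30, 4, 26 and 1 UMIs in Acinar.Prolif cells and 81, 27, 819 and 14 UMIs in Acinar cells, and 721 of the 819 lay in 1 cell of 4-week mouse 1. Neither call was kept without that mouse, nor without 2-week mouse 1, nor when cells with at least 3 immune or stromal UMIs were left out. Groups of 2 mice are too small for a check of outliers.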

How the results depend on the processing

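Between time points, no paired analysis was possible because the 2-week and 4-week mice are different animals, and the numbers 1 and 2 only name the mice within a time point. Types were compared within each mouse, and the interaction had the mouse as a block. The time effect gave 1 call, against 2 with DESeq2, 2 by total UMIs, 51 with no gene filter, 0 without robust estimation, 3 with marker-holding cells left out and 5 to 143 with a mouse left out; Atf3 was among the calls in each but the non-robust fit. The interaction gave 2 calls, against 0 with DESeq2, 9 by total UMIs, 90 with no filter, 1 (neither of the 2) with marker-holding cells left out, 3 to 136 with a mouse left out and, with no replicate block (added after seeing the data), 0. Of 231 values of picked genes under these alternatives, 189 stayed on their side of the threshold, 32 passed it newly, 10 lost it and 0 changed direction. Not all of these genes are named here. The uncalled ones were picked for non-overlapping mice in Acinar.Prolif cells. Leaving out a mouse could therefore hardly turn their time effect, and the 0 is no evidence of stability.

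Against Acinar cells, 367 genes were higher and 9 lower. TMM gave 205 and 27, a 1.5-fold limit 1008 and 21, leaving enzymes out of the library size 25 lower and a pseudocount of 5 CPM 2 lower; with a mouse left out, the counts ran from 368 to 491 and 9 to 12. Against cluster 0 they were 1072 and 1, against cluster 6, 82 lower, and against cluster 8, 187 higher. The mean Mki67 share was 57.1% thinned and 87.0% unthinned. The share of Acinar.Prolif cells differed by -3.92 percentage points (4 minus 2 weeks), from -10.1 to 2.28 with a mouse left out. It turned positive without 2-week mouse 1. The median S share differed by -0.00373, from -0.0204 to 0.0129 with a mouse left out, turning to 0.00152 without 2-week mouse 2 and to 0.0129 without 4-week mouse 1. The cause of these shifts was not tested. With 2 mice per time point, small changes would not be detected.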
